A study of Homo sapiens with 10 samples.

Results

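The genes described here are 55 that encode the machinery of mitosis: the kinases and cyclins that start it, the spindle assembly checkpoint, the centromere and kinetochore, the chromosomal passenger complex, mitotic kinesins, the regulators of anaphase, spindle assembly factors, cytokinesis proteins and condensin, with FOXM1 and MKI67. They were chosen by name for their function, with earlier results of these data known, and all 55 were among the 18144 genes listed for these spheroids. For this description they were divided into 10 role classes of 2 to 10 genes.

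The samples were 3D spheroids of PC-3, an established prostate cancer cell line that the labels give as wild type, either left untreated (CTRL) or exposed to topotecan, a topoisomerase I inhibitor, on a conventional schedule (CONV-TOPO) or on an extended-exposure schedule (EE-TOPO, which the treatment labels call METRO). By the study's methods the conventional schedule is a bolus and the extended exposure gives the same weekly amount in small daily portions, and the comparison asks how the schedule of dosing alters the cells. Gene expression was measured by RNA-seq in 7 libraries, 1 per condition: untreated spheroids of days 0, 3 and 7, and spheroids of each regimen on days 3 and 7. The 3 samples of day 1 were not analysed here. Times follow the sample titles, although the series' design text and the study's methods give an exposure of 6 weeks, so what the days are counted from is uncertain. All groups come from the same line with the same genotype label, and with 1 library each no condition has a replicate. Levels are in CPM, read counts scaled so that each library sums to 1000000 over the listed genes. Estimated depth was 15028038 to 22477750 reads a library, and the member with the fewest estimated reads in any library was CDC25C, with 82 in EE-TOPO day 7.

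Mitosis begins when CDK1 bound to B-type cyclins, helped by the CDC25 phosphatases and by the kinases PLK1 and AURKA, phosphorylates its many targets. Chromosomes are compacted by condensin, their kinetochores are captured by spindle microtubules, and the checkpoint kinases BUB1 and TTK with MAD2L1 hold the anaphase-promoting complex inactive until all are attached. CDC20 then activates that complex, securin (PTTG1) is destroyed, separase (ESPL1) cleaves cohesin, and the cell divides at a midzone built by PRC1 and KIF23. Transcripts of many of these genes peak in G2 and M phase through promoters bound by the MuvB complex, B-MYB, FOXM1 and NF-Y, so that their level in a bulk library follows both how many cells are in those phases and how much RNA each holds. In these bulk spheroids fewer cells in G2 and M phase and less RNA per cell cannot be told apart.

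In the untreated spheroids most of these genes were lower on day 3 than on day 0 or day 7. The median log2 ratio of day 3 to day 0 over the 55 members was -0.40, against -0.02 over the 11332 genes with a mean of at least 5 CPM, a limit that all 55 members passed. Ratios are differences of log2(scaled CPM + 1) between single libraries, where the scaling (TMM) sets the bulk of genes equal, so they carry no replicate error. Of the 55 members 45 were below 0, 16 were at least 1.5-fold lower and 0 at least 1.5-fold higher, where 2.66% of all genes were that much lower and 5.11% that much higher. By day 7 the members stood at a median log2 ratio of 0.02 to day 0 with 0 past 1.5-fold either way, where 1.93% of genes were lower and 4.17% higher. Against untreated day 3, untreated day 7 was at a median of 0.39, with 19 members at least 1.5-fold higher (3.73% of all genes) and 1 lower, SGO1 (3.85%). The untreated day-3 library was at least 1.5-fold below both neighbours in time for 14 members: ASPM, AURKA, BUB1, CCNA2, CCNB1, CDC20, CENPA, CENPF, DLGAP5, HMMR, KIF20A, KIF23, MKI67 and PLK1. The share of all genes with that pattern was 1.11%. The heat map of members by library shows this day-3 column and the later split between the regimens.

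**Figure D1:**
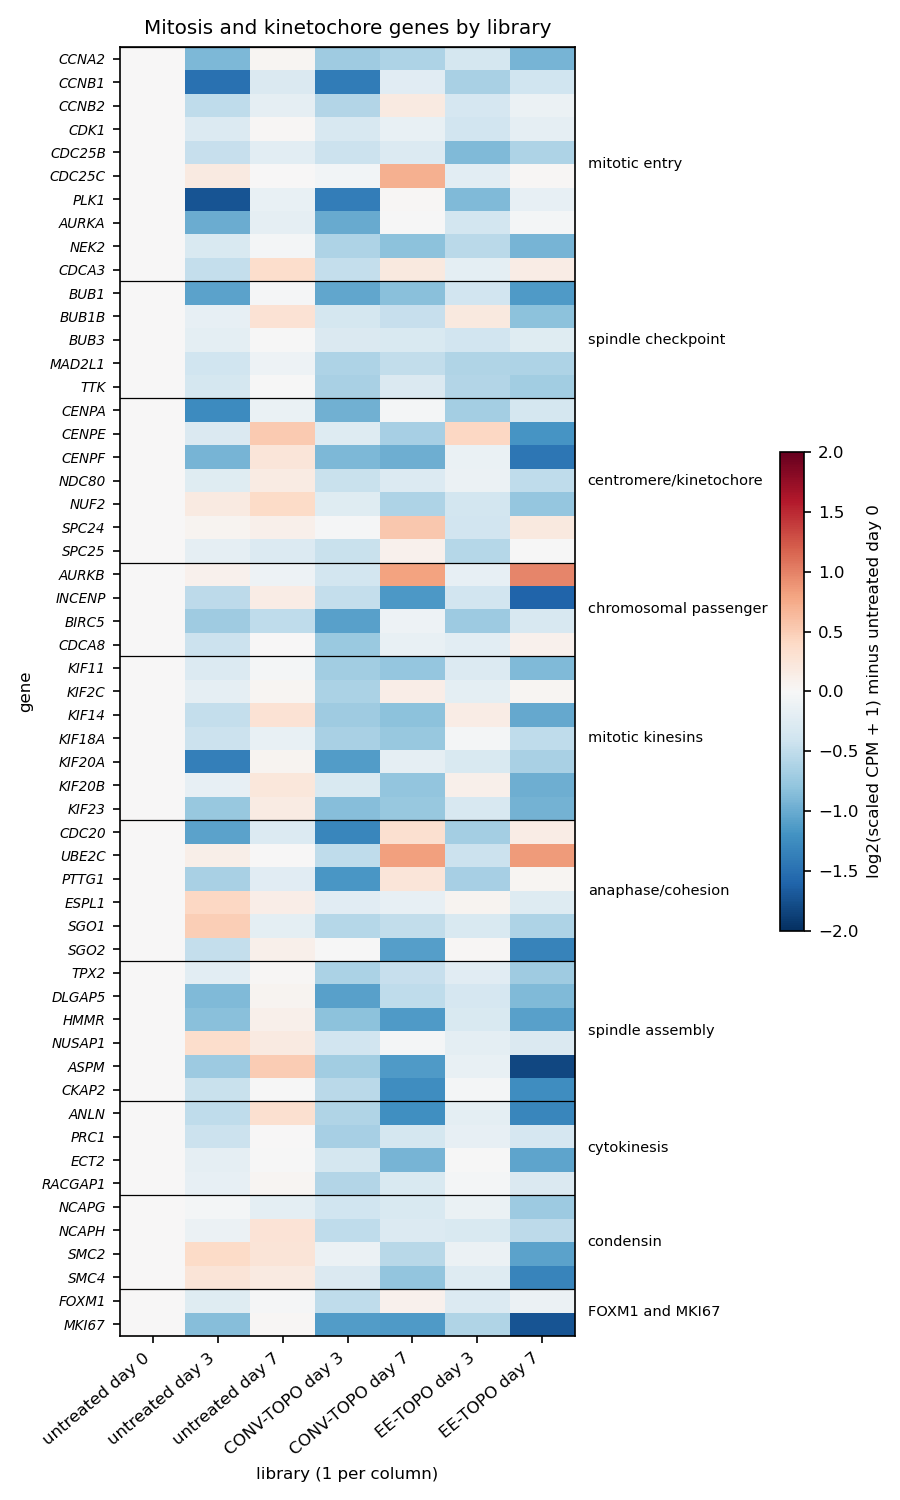
Log2(scaled CPM + 1) of each of the 55 members (rows, grouped by role) in each of the 7 libraries (columns, 1 library each), minus its value in untreated day 0. Read along each row, PLK1, CCNB1, KIF20A and CENPA are darkest in the untreated day-3 and CONV-TOPO day-3 columns, and ASPM, MKI67 and INCENP in EE-TOPO day 7.

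Promoters are shown here because the members with at least 2 copies of the letters bound by NF-Y had lower untreated day-3 ratios than those with fewer. RefSeq windows (GRCh38.p14) from 250 bases before to 50 bases after the start of transcription were at hand for 47 of the 55 members, and the first window listed was used where a gene has several. Searched on both strands were CCAAT, the letters bound by NF-Y, and TTTGAA and TTTAAA, 2 forms of the cell-cycle homology region bound by MuvB. TTTGAA stood in 31 of 47 member windows (66.0%) and in 15.4% of all 27305 windows, TTTAAA in 34.0% and 12.3%, and CCAAT in 74.5% and 35.7%. At least 2 CCAAT together with TTTGAA or TTTAAA were found in 17 of 47 members (36.2%) and in 2.77% of all windows. A match of letters is a description and not a binding site. The 150 bases before the start are given for the 4 members with the lowest and the 2 with the highest ratio of untreated day 3 to day 0, with the searched letters in capitals (ATTGG and TTCAAA are CCAAT and TTTGAA read on the other strand).
PLK1: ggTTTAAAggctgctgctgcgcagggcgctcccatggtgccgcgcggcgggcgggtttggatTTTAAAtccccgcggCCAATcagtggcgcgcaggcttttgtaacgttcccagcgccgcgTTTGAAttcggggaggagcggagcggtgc
CCNB1: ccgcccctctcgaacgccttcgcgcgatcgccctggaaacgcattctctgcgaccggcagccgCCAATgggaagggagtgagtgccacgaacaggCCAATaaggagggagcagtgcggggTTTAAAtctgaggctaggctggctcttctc
KIF20A: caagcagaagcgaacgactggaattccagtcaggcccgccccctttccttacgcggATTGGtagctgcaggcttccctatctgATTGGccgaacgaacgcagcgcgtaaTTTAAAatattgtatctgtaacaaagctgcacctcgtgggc
CENPA: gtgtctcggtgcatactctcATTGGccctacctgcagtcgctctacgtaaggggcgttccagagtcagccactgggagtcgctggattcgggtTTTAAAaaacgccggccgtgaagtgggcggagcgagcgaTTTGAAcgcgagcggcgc
ESPL1: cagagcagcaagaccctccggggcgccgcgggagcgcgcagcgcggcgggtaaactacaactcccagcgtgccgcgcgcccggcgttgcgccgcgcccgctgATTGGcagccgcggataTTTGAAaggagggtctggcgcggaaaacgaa
SGO1: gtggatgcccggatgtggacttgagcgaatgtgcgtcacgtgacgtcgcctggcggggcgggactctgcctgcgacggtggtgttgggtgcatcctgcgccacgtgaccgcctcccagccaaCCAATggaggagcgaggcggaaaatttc
The PLK1 window lies at chr16:23678739-23678888, plus strand, that of CCNB1 at chr5:69167000-69167149, plus strand, that of KIF20A at chr5:138178962-138179111, plus strand, that of CENPA at chr2:26785906-26786055, plus strand, that of ESPL1 at chr12:53268149-53268298, plus strand and that of SGO1 at chr3:20186207-20186356, minus strand. In CCNB1, TTTAAA begins 30 bases before the start with CCAAT at 55 and 87 bases before it, and KIF20A has the same arrangement with CCAAT read on the other strand at 67 and 94 bases. PLK1 carries both TTTGAA, 29 bases before the start, and TTTAAA with a single CCAAT. CENPA has TTTGAA at 18 and TTTAAA at 57 bases before the start. SGO1 had neither TTTGAA nor TTTAAA in its window, and ESPL1 had TTTGAA at 31 bases before the start with 1 CCAAT.

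The 20 members with at least 2 CCAAT in the window had a median log2 ratio of untreated day 3 to day 0 of -0.69, and 11 were at least 1.5-fold lower, whereas the 27 with fewer had -0.28 and 3. The 17 that also held TTTGAA or TTTAAA, among them CCNB1, KIF20A and CENPA shown above, had -0.73 with 10 lower. Split by TTTGAA or TTTAAA alone, the 38 members with either had -0.43 with 12 lower. The 9 with neither had -0.30 with 2 lower, a smaller difference than in the split by CCAAT. PLK1, with 1 CCAAT, was the lowest of all, so that the letters did not order the members on their own. On day 7 with EE-TOPO the medians of those with at least 2 and those with fewer CCAAT were -0.79 and -0.68, and with CONV-TOPO -0.40 and -0.54, in the opposite order. These splits were made on members chosen with their values known and carry no test.

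On day 3 the members stood, by their median, on opposite sides of the untreated library with the 2 regimens. Their median log2 ratio to untreated day 3 was -0.22 with CONV-TOPO and 0.13 with EE-TOPO, both against a base that was itself low. With CONV-TOPO 4 members were at least 1.5-fold lower, SGO1, NUSAP1, ESPL1 and UBE2C, and 0 higher, where 2.29% of all genes were lower and 2.72% higher. With EE-TOPO 8 members were at least 1.5-fold higher (5.52% of all genes) and 1 lower, SGO1 (4.48%). Set directly against each other, EE-TOPO was above CONV-TOPO on day 3 for 48 of 55 members at a median of 0.36, and 10 members were at least 1.5-fold higher (1.87% of all genes) and 0 lower (1.66%). Against untreated day 0 in place of day 3 the median for EE-TOPO turned negative, to -0.30, and the count of members at least 1.5-fold higher went from 8 to 0 (9.26% of all genes on that base) with 10 lower (9.05%). The CONV-TOPO median was then -0.59, with 55 of 55 members below 0 and 28 in place of 4 at least 1.5-fold lower (6.4% of all genes). Scaling by library totals alone left the EE-TOPO median positive at 0.20, with 13 members past 1.5-fold higher (7.29% of all genes).

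On day 7 both regimens were below untreated spheroids for most members, and EE-TOPO was the lower. The median log2 ratio was -0.37 with CONV-TOPO and -0.54 with EE-TOPO, where the medians of all genes were -0.03 and -0.03. With CONV-TOPO 22 members were at least 1.5-fold lower and 4 higher, and with EE-TOPO 27 were lower and 2 higher. In these comparisons large ratios were common among all genes: 21.7% were lower and 20.3% higher with CONV-TOPO, and 22.8% lower and 20.9% higher with EE-TOPO. Both regimens together were at least 1.5-fold below untreated for 21 members, against 17.5% of all genes, and above it for AURKB and UBE2C, against 17.3%. EE-TOPO was below CONV-TOPO on day 7 for 47 of 55 members at a median of -0.20, with 3 at least 1.5-fold lower, CDC25C, ASPM and MKI67 (2.46% of all genes), and 0 higher (2.59%). Library totals alone lowered the median of all genes to -0.27 and -0.24 and those of the members to -0.61 and -0.74. The split with CONV-TOPO was then 28 lower (33.1% of all genes) and 1 higher, AURKB (12%), and with EE-TOPO 33 lower (32.2%) and 2 higher (13.7%).

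By sign alone, the order of the regimens differed between the days for most members: 41 of 55 had EE-TOPO above CONV-TOPO on day 3 and below it on day 7. At 1.5-fold or more in both directions there were 0 members, where 0.124% of all genes had that pattern. Of the 11332 genes 5457 had EE-TOPO above CONV-TOPO on day 3 and 5976 had it below on day 7. The share of all genes with both signs was not counted. The members' summed scaled level was 3291, 2447 and 3289 CPM untreated on days 0, 3 and 7, then 2075 and 2562 CPM for CONV-TOPO, with 2569 and 2232 CPM for EE-TOPO. On scaled CPM EE-TOPO day 7 was the lowest of the 7 libraries for 27 members, CONV-TOPO day 3 for 15, EE-TOPO day 3 for 6, untreated day 3 for 5 and CONV-TOPO day 7 for 2. The highest was untreated day 7 for 23 members and untreated day 0 for 15. Without the scaling EE-TOPO day 7 was the lowest for 32 and untreated day 7 the highest for 32. The lowest and highest libraries were not counted over all genes, of which 22.8% were at least 1.5-fold lower with EE-TOPO than untreated on day 7. In the values by gene that follow, pairs under a regimen are for days 3 and 7, triples on a day are for untreated, CONV-TOPO and EE-TOPO, all on the CPM scale as deposited.

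The 10 mitotic entry genes included the lowest untreated day-3 ratios of all members, and with CONV-TOPO 5 of them were below untreated on day 7 and 5 above it. PLK1, the kinase that drives centrosome maturation and entry, was in untreated spheroids at 70.1, 21.6 and 67.6 CPM on days 0, 3 and 7, under CONV-TOPO at 28.8 and 63.9 CPM and under EE-TOPO at 41.7 and 57.4 CPM. Its scaled level on untreated day 3 was 0.291 (95% counting interval 0.260 to 0.325) of that on day 0, and its log2 ratio of -1.73 was the lowest among all 11332 genes. Such intervals cover counting error between 2 libraries and not the spread between cultures. CCNB1, the cyclin B1 partner of CDK1, was at 81.0 CPM on day 0, at 29.7, 33.1 and 57.4 CPM on day 3 (untreated, CONV-TOPO, EE-TOPO) and at 71.2, 62.2 and 56.4 CPM on day 7. For both genes the untreated and CONV-TOPO libraries of day 3 were the lowest of the 7, and EE-TOPO day 3 lay between them and day 0, at log2 ratios to untreated day 3 of 0.85 and 0.86. AURKA, the centrosomal Aurora kinase, was measured at 66.4 CPM at the start, on day 3 at 34.98 CPM untreated, 35.4 CPM under CONV-TOPO and 57.0 CPM under EE-TOPO, and on day 7 at 62.7, 59.4 and 59.2 CPM. CDK1 itself, which is controlled largely through its cyclins and by phosphorylation, was in untreated spheroids at 106, 92.4 and 116 CPM on days 0, 3 and 7, under CONV-TOPO at 92.8 and 85.9 CPM and under EE-TOPO at 90.0 and 85.8 CPM. CDK1 thus covered a narrow range, and AURKA repeated the pattern of PLK1. CDC25B, a phosphatase that activates CDK1, was at 145 CPM on day 0, at 112, 117 and 87.0 CPM on day 3 (untreated, CONV-TOPO, EE-TOPO) and at 135, 108 and 86.8 CPM on day 7. CDC25C, a second such phosphatase, was measured at 5.86 CPM at the start, on day 3 at 7.13 CPM untreated, 6.12 CPM under CONV-TOPO and 5.47 CPM under EE-TOPO, and on day 7 at 6.30, 9.24 and 5.46 CPM. CDC25B was lower in the EE-TOPO libraries than in the other 5, and CDC25C was highest in CONV-TOPO day 7. CDC25C's ratio of EE-TOPO to CONV-TOPO on day 7 was 0.579 (95% interval 0.437 to 0.762), the lowest among the members. On day 7 the class had a median log2 ratio of -0.01 with CONV-TOPO and -0.16 with EE-TOPO, and CCNA2 and NEK2 were at least 1.5-fold lower with both.

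**Figure D2:**
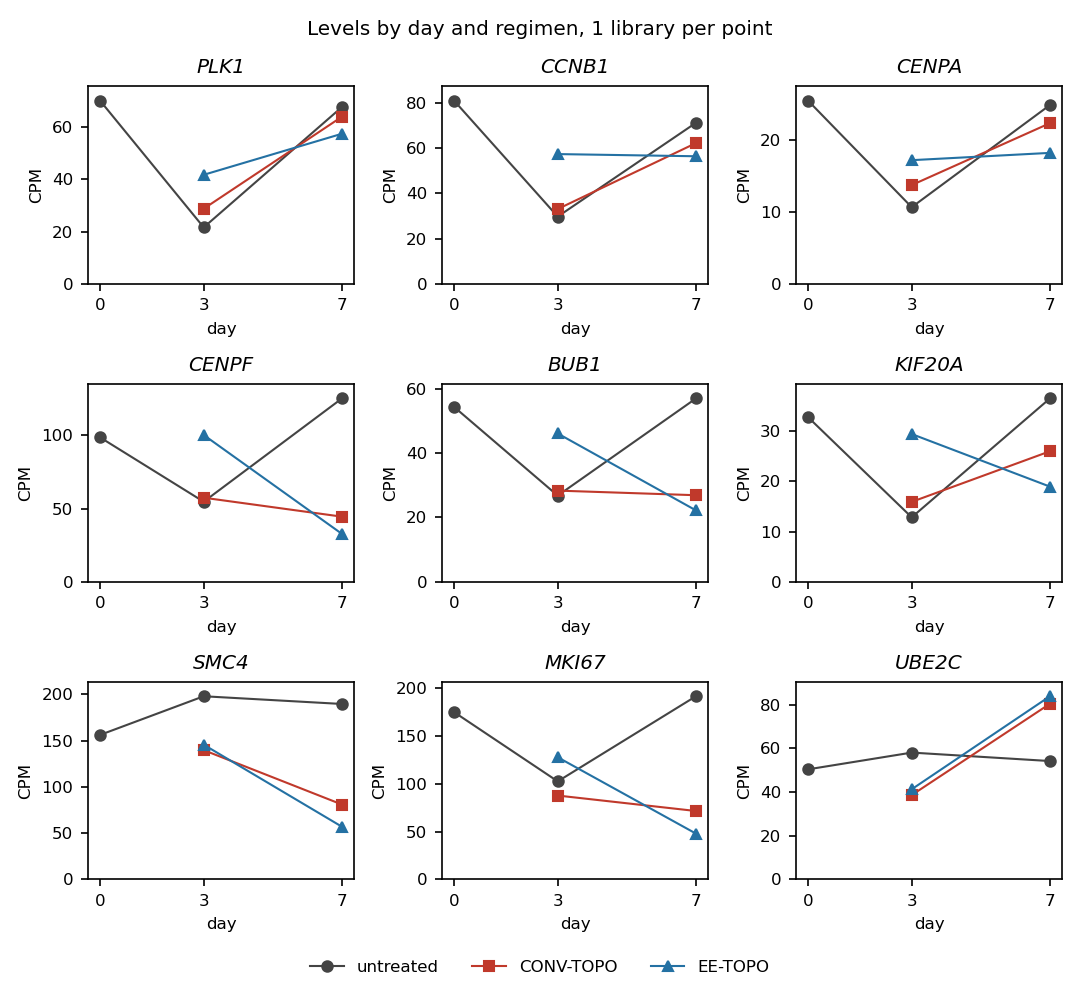
CPM (vertical axis, from 0) against day (horizontal axis) of 9 members in untreated, CONV-TOPO and EE-TOPO spheroids, with 1 library per point and lines joining libraries of 1 group. The untreated line dips on day 3 for PLK1, CCNB1, CENPA, CENPF, BUB1, KIF20A and MKI67 and not for SMC4 or UBE2C.

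Among the 5 spindle assembly checkpoint genes, all were below untreated with both regimens on day 7. Of the 11332 genes 5830 were below it with CONV-TOPO and 5851 with EE-TOPO. BUB1, the kinase that recruits checkpoint proteins to kinetochores, was in untreated spheroids at 54.3, 26.7 and 56.9 CPM on days 0, 3 and 7, under CONV-TOPO at 28.3 and 26.9 CPM and under EE-TOPO at 46.0 and 22.2 CPM. BUB3, which carries BUB1 to the kinetochore, was at 130.0 CPM on day 0, at 120.0, 117 and 111 CPM on day 3 (untreated, CONV-TOPO, EE-TOPO) and at 138, 94.5 and 101 CPM on day 7. MAD2L1, the inhibitor of CDC20, was measured at 49.8 CPM at the start, on day 3 at 39.8 CPM untreated, 35.1 CPM under CONV-TOPO and 35.9 CPM under EE-TOPO, and on day 7 at 49.9, 31.7 and 29.5 CPM. BUB1 on untreated day 3 was at 0.464 (95% interval 0.417 to 0.517) of day 0, while BUB3 and MAD2L1 varied less. BUB1 with EE-TOPO was at 1.64 (95% interval 1.47 to 1.83) of untreated on day 3 and 0.454 (95% interval 0.401 to 0.514) on day 7. BUB1B, the BUBR1 pseudokinase of the checkpoint complex, had log2 ratios to untreated day 7 of -0.75 for CONV-TOPO and -1.11 for EE-TOPO. TTK, the MPS1 kinase that starts checkpoint signalling, had -0.28 and -0.68. The class median on day 7 was -0.39 with CONV-TOPO and -0.68 with EE-TOPO.

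The 7 centromere and kinetochore genes split by protein. CENPA, the histone H3 variant that marks centromeres, was in untreated spheroids at 25.5, 10.7 and 24.9 CPM on days 0, 3 and 7, under CONV-TOPO at 13.8 and 22.4 CPM and under EE-TOPO at 17.2 and 18.2 CPM. CENPE, the kinesin that carries chromosomes to the spindle equator, was at 19.1 CPM on day 0, at 16.4, 17.2 and 28.5 CPM on day 3 (untreated, CONV-TOPO, EE-TOPO) and at 29.7, 10.45 and 7.25 CPM on day 7. CENPF, a large protein of the outer kinetochore, was measured at 98.6 CPM at the start, on day 3 at 54.6 CPM untreated, 57.4 CPM under CONV-TOPO and 100.2 CPM under EE-TOPO, and on day 7 at 125, 44.4 and 32.7 CPM. CENPA was lowest on untreated day 3, whereas CENPE and CENPF were lowest with EE-TOPO on day 7 and with EE-TOPO on day 3 stood near untreated day 7 for CENPE and near untreated day 0 for CENPF. The day-7 ratio with EE-TOPO was 0.285 (95% interval 0.230 to 0.350) for CENPE and 0.305 (95% interval 0.276 to 0.336) for CENPF, and 0.855 (95% interval 0.734 to 0.994) for CENPA. NDC80, the microtubule-binding subunit of the NDC80 complex, was in untreated spheroids at 25.7, 22.9 and 31.0 CPM on days 0, 3 and 7, under CONV-TOPO at 20.4 and 18.9 CPM and under EE-TOPO at 26.4 and 16.2 CPM. NUF2, its partner in that complex, was at 15.9 CPM on day 0, at 19.1, 14.6 and 13.5 CPM on day 3 (untreated, CONV-TOPO, EE-TOPO) and at 22.5, 9.06 and 8.18 CPM on day 7. SPC24, of the complex's inner end, was measured at 17.1 CPM at the start, on day 3 at 18.9 CPM untreated, 18.4 CPM under CONV-TOPO and 14.3 CPM under EE-TOPO, and on day 7 at 19.7, 22.9 and 18.1 CPM. The 4 subunits of this complex did not share a pattern: NDC80 and NUF2 had day-7 log2 ratios of -0.68 and -1.15 with EE-TOPO, while SPC24 and SPC25 had 0.09 and 0.26. Their transcripts are all shorter than those of CENPE and CENPF, at 2126 bases for NDC80, 1964 for NUF2, 2290 for SPC24 and 1342 for SPC25.

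The chromosomal passenger complex showed opposite day-7 values in its subunits. AURKB, its kinase, was in untreated spheroids at 16.2, 18.3 and 16.1 CPM on days 0, 3 and 7, under CONV-TOPO at 13.4 and 26.1 CPM and under EE-TOPO at 16.0 and 30.2 CPM. INCENP, the scaffold that activates AURKB, was at 79.4 CPM on day 0, at 58.4, 62.2 and 67.3 CPM on day 3 (untreated, CONV-TOPO, EE-TOPO) and at 94.6, 31.6 and 23.5 CPM on day 7. AURKB was the member with the highest day-7 ratio, 1.93 (95% interval 1.66 to 2.24) with CONV-TOPO and 2.19 (95% interval 1.89 to 2.55) with EE-TOPO, and INCENP was among the 3 lowest, at 0.398 and 0.290. BIRC5, or survivin, which brings the complex to centromeres, was measured at 315 CPM at the start, on day 3 at 203 CPM untreated, 161 CPM under CONV-TOPO and 212 CPM under EE-TOPO, and on day 7 at 238, 263 and 231 CPM. Its mean level per kilobase of transcript, 90.1 CPM, was the highest of the 55, above UBE2C at 74.8 and CDK1 at 50.6. CDCA8, or borealin, was in untreated spheroids at 37.3, 29.2 and 40.3 CPM on days 0, 3 and 7, under CONV-TOPO at 24.0 and 30.3 CPM and under EE-TOPO at 35.8 and 36.3 CPM. Neither BIRC5 nor CDCA8 was past 1.5-fold with a regimen on day 7, and both were lowest with CONV-TOPO on day 3.

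Mitotic kinesins all had higher levels with EE-TOPO than with CONV-TOPO on day 3, at a class median log2 ratio of 0.54 with 7 of 7 above 0. This was shared by 48 of 55 members, among them FOXM1 and MKI67. It also held for every gene of the anaphase, spindle assembly, chromosomal passenger, cytokinesis and condensin classes. The spindle assembly median was 0.50, and 5457 of the 11332 genes were above 0. KIF20A, which works at the central spindle in cytokinesis, was at 32.8 CPM on day 0, at 12.8, 15.9 and 29.5 CPM on day 3 (untreated, CONV-TOPO, EE-TOPO) and at 36.6, 26.0 and 19.0 CPM on day 7. KIF11, or Eg5, which pushes the spindle poles apart, was measured at 35.4 CPM at the start, on day 3 at 30.9 CPM untreated, 23.6 CPM under CONV-TOPO and 32.6 CPM under EE-TOPO, and on day 7 at 36.97, 18.4 and 17.3 CPM. KIF14, a midbody kinesin, was in untreated spheroids at 27.4, 20.5 and 36.1 CPM on days 0, 3 and 7, under CONV-TOPO at 17.9 and 13.6 CPM and under EE-TOPO at 34.0 and 11.9 CPM. KIF20A had the highest EE-TOPO ratio to untreated day 3 among the members, 2.19 (95% interval 1.88 to 2.54), and KIF14 the highest ratio of EE-TOPO to CONV-TOPO on day 3, 1.87 (95% interval 1.63 to 2.16). KIF2C, the microtubule-depolymerising MCAK, was at 42.9 CPM on day 0, at 40.05, 29.9 and 41.4 CPM on day 3 (untreated, CONV-TOPO, EE-TOPO) and at 47.3, 42.2 and 40.4 CPM on day 7. KIF18A, which dampens chromosome movements, was measured at 10.97 CPM at the start, on day 3 at 8.40 CPM untreated, 7.30 CPM under CONV-TOPO and 11.8 CPM under EE-TOPO, and on day 7 at 10.50, 5.47 and 6.79 CPM. On day 7 KIF2C stood near untreated and KIF18A was the member with the highest ratio of EE-TOPO to CONV-TOPO, 1.22 (95% interval 0.907 to 1.63), an interval that includes 1. KIF11, KIF14, KIF20B and KIF23 were at least 1.5-fold below untreated with both regimens on day 7 (17.5% of all genes). The class medians on that day were -0.73 (CONV-TOPO) and -0.84 (EE-TOPO). Removing the trend with transcript length, genomic span and GC content, described below, made most of these day-7 ratios smaller. Only KIF23 stayed past 1.5-fold under both regimens, at log2 ratios of -0.63 (CONV-TOPO) and -0.83 (EE-TOPO). In the same order KIF11 was at -0.16 and -0.26, KIF14 at -0.36 and -0.55 and KIF20B at -0.12 and -0.35.

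The 6 anaphase genes divided on untreated day 3, with 3 below day 0 and 3 above it. CDC20, the activator of the anaphase-promoting complex, was in untreated spheroids at 83.9, 41.7 and 73.9 CPM on days 0, 3 and 7, under CONV-TOPO at 36.6 and 94.6 CPM and under EE-TOPO at 57.6 and 85.2 CPM. UBE2C, the ubiquitin-conjugating enzyme of that complex, was at 50.4 CPM on day 0, at 58.1, 38.6 and 41.3 CPM on day 3 (untreated, CONV-TOPO, EE-TOPO) and at 54.2, 80.4 and 83.8 CPM on day 7. PTTG1, or securin, was measured at 42.6 CPM at the start, on day 3 at 28.5 CPM untreated, 20.2 CPM under CONV-TOPO and 29.5 CPM under EE-TOPO, and on day 7 at 39.0, 45.5 and 40.2 CPM. All of these were lowest with CONV-TOPO on day 3 and in the day-7 treated libraries were above untreated, by a log2 ratio of 0.60 and 0.42 for CDC20, 0.81 and 0.84 for UBE2C and 0.47 and 0.26 for PTTG1 with CONV-TOPO and EE-TOPO. With the trend with transcript length, genomic span and GC content removed, as described below, CDC20 and PTTG1 fell below 0. CDC20 was then at -0.06 and -0.25 and PTTG1 at -0.14 and -0.30, while UBE2C was at 0.07 and 0.13. ESPL1, or separase, which opens the cohesin ring, was in untreated spheroids at 27.5, 39.4 and 32.6 CPM on days 0, 3 and 7, under CONV-TOPO at 25.6 and 22.0 CPM and under EE-TOPO at 31.9 and 21.0 CPM. SGO1, the shugoshin that protects centromeric cohesin, was at 13.3 CPM on day 0, at 20.1, 9.47 and 11.8 CPM on day 3 (untreated, CONV-TOPO, EE-TOPO) and at 12.2, 8.20 and 7.59 CPM on day 7. SGO2, its paralog, was measured at 47.7 CPM at the start, on day 3 at 36.1 CPM untreated, 51.7 CPM under CONV-TOPO and 54.1 CPM under EE-TOPO, and on day 7 at 54.8, 19.6 and 16.8 CPM. ESPL1 and SGO1 were highest on untreated day 3, opposite to CDC20, and SGO1 had the lowest day-3 ratio among the members with either regimen, 0.456 (95% interval 0.374 to 0.554) with CONV-TOPO and 0.558 (95% interval 0.475 to 0.655) with EE-TOPO. SGO2 was the member with the highest CONV-TOPO ratio on day 3, 1.38 (95% interval 1.25 to 1.54), and was at 0.427 and 0.357 of untreated with CONV-TOPO and EE-TOPO on day 7.

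All 6 spindle assembly genes were below untreated with both regimens on day 7, with class medians of -0.89 with CONV-TOPO and -1.06 with EE-TOPO. ASPM, which organises spindle poles, was in untreated spheroids at 28.0, 17.5 and 43.2 CPM on days 0, 3 and 7, under CONV-TOPO at 18.5 and 11.1 CPM and under EE-TOPO at 28.0 and 6.654 CPM. TPX2, the activator of AURKA on the spindle, was at 131 CPM on day 0, at 119.6, 92.4 and 124 CPM on day 3 (untreated, CONV-TOPO, EE-TOPO) and at 142, 85.3 and 73.3 CPM on day 7. NUSAP1, which bundles spindle microtubules, was measured at 74.4 CPM at the start, on day 3 at 101 CPM untreated, 62.0 CPM under CONV-TOPO and 71.9 CPM under EE-TOPO, and on day 7 at 90.2, 64.8 and 55.9 CPM. ASPM had the lowest ratio of all members on day 7, 0.305 (95% interval 0.258 to 0.358) with CONV-TOPO and 0.180 (95% interval 0.145 to 0.221) with EE-TOPO, and at 10863 bases its transcript is the second longest after MKI67. NUSAP1 was highest on untreated day 3, and its day-3 ratio was 0.597 (95% interval 0.552 to 0.646) with CONV-TOPO and 0.682 (95% interval 0.637 to 0.729) with EE-TOPO. DLGAP5 and HMMR, microtubule-binding spindle factors, followed the untreated day-3 dip, at log2 ratios to day 0 of -0.88 and -0.84. CKAP2, a microtubule stabiliser, stood at -0.45 on that scale and at -1.23 and -1.24 against untreated on day 7.

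Of the 4 cytokinesis genes, all were above untreated day 3 with EE-TOPO and below it with CONV-TOPO. ANLN, or anillin, which organises the contractile ring, was in untreated spheroids at 134, 98.8 and 179 CPM on days 0, 3 and 7, under CONV-TOPO at 96.4 and 51.1 CPM and under EE-TOPO at 129 and 49.2 CPM. ECT2, the exchange factor that activates RhoA at the division plane, was at 99.6 CPM on day 0, at 93.3, 84.9 and 110.4 CPM on day 3 (untreated, CONV-TOPO, EE-TOPO) and at 106, 46.8 and 43.3 CPM on day 7. ANLN and ECT2 were at 0.321 and 0.479 of untreated with EE-TOPO on day 7, while PRC1, which crosslinks midzone microtubules, and RACGAP1, the partner of KIF23 in centralspindlin, were at 0.779 and 0.795. Ratios of EE-TOPO to CONV-TOPO on day 7 were close to 1 in this class, between a log2 value of -0.14 for ECT2 and 0.01 for RACGAP1.

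Condensin subunits differed from each other on untreated day 3. SMC4, a core ATPase subunit shared by both condensins, was measured at 156 CPM at the start, on day 3 at 198 CPM untreated, 139.8 CPM under CONV-TOPO and 146 CPM under EE-TOPO, and on day 7 at 189.6, 81.0 and 57.0 CPM. SMC2, its partner, was in untreated spheroids at 32.1, 44.5 and 41.3 CPM on days 0, 3 and 7, under CONV-TOPO at 32.2 and 19.4 CPM and under EE-TOPO at 32.9 and 13.6 CPM. Both were highest on untreated day 3 and lowest with EE-TOPO on day 7. The class of 4, with NCAPG and NCAPH of condensin I, had a median log2 ratio of 0.11 on untreated day 3 to day 0. In that comparison 2 of the 4 were above 0, 2 were below it and 0 were at least 1.5-fold lower. NCAPD2, a condensin I subunit that is not a member, was at -0.48. In the class of 4 both regimens were below untreated for 4 of 4 on each day. The medians were -0.44 and -0.34 for CONV-TOPO and EE-TOPO on day 3 and -0.67 and -1.06 on day 7. With the trend with transcript length, genomic span and GC content removed, NCAPG was at 0.36 with CONV-TOPO on day 7. NCAPH, SMC2 and SMC4 were then at -0.09, -0.14 and -0.36. On day 7 the ratio with EE-TOPO was 0.351 (95% interval 0.325 to 0.378) for SMC4 and 0.385 (95% interval 0.329 to 0.450) for SMC2. Of all 55 members 14 were below untreated with both regimens on both days, and they included all 4 condensin genes beside BUB3, CDK1, ESPL1, MAD2L1, NEK2, NUF2, NUSAP1, SGO1, TPX2 and TTK. The share of all genes below untreated with both regimens on both days was not counted.

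FOXM1, a transcription factor of the G2 and M phase programme, was at 109 CPM on day 0, at 97.95, 83.2 and 100.1 CPM on day 3 (untreated, CONV-TOPO, EE-TOPO) and at 114, 104 and 92.5 CPM on day 7. MKI67, which encodes the proliferation marker Ki-67 that coats mitotic chromosomes, was measured at 175 CPM at the start, on day 3 at 103 CPM untreated, 87.8 CPM under CONV-TOPO and 128 CPM under EE-TOPO, and on day 7 at 192, 71.7 and 48.0 CPM. FOXM1 thus spanned a narrow range, while MKI67 was at 0.445 (95% interval 0.416 to 0.475) of untreated with CONV-TOPO and 0.293 (95% interval 0.270 to 0.317) with EE-TOPO on day 7. The plot of ratios by role sets all members side by side.

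**Figure D3:**
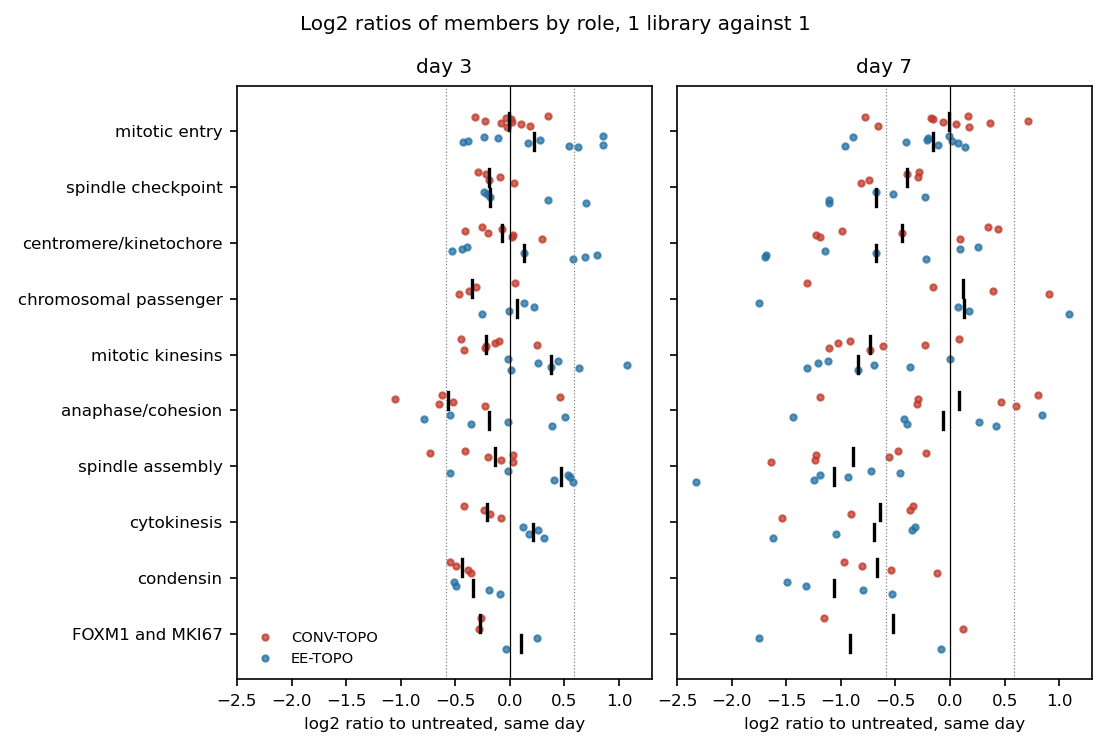
Log2 ratio to the untreated library of the same day (horizontal axis) of each member (points) by role (rows) with CONV-TOPO and EE-TOPO on day 3 and day 7, black bars marking class medians and dotted lines 1.5-fold. On day 3 the EE-TOPO medians of kinesin and spindle assembly genes lie right of 0 and those of condensin left of it, and on day 7 the spindle assembly and condensin medians with EE-TOPO lie at -1.06.

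Day-7 ratios of the members moved with the length of their transcripts. Over the 55 members Spearman's rho between the log2 ratio and the length of the canonical GENCODE 44 transcript was -0.71 with CONV-TOPO and -0.74 with EE-TOPO, and over 11123 genes it was -0.65 and -0.61. Genes of 1 library pair share that pair's depth and composition, so these are descriptions. The 18 members with the longest transcripts, 4114 to 12716 bases, were all below untreated, at medians of -0.997 and -1.32, while 4138 other genes of those lengths had -0.47 and -0.46. The 18 shortest, 715 to 2290 bases, had medians of 0.17 and 0.00, against 0.55 and 0.53 in 3034 other genes. Long members such as CENPF (10290 bases) and short members such as UBE2C (777 bases) thus lay at the 2 ends of the day-7 values. With the trend with transcript length, genomic span and GC content over all genes removed, the median was -0.22 with CONV-TOPO and -0.40 with EE-TOPO, and 41 and 50 of 55 members were below 0. The count at least 1.5-fold lower was then 11 with CONV-TOPO (9.54% of all genes) and 23 with EE-TOPO (11.3%), and 1 and 0 were higher (9.31% and 11.6%). AURKB stood at 0.16 and 0.34 and UBE2C at 0.07 and 0.13 after that removal, ASPM at -0.76 and -1.41, and SMC4 at -0.36 and -0.91. The same libraries differed from the rest in the genes listed at 0, 2134 in CONV-TOPO day 7 and 1662 in EE-TOPO day 7 against 593 to 1256 in the others, and in the share of CPM held by their 50 highest genes, 15.5% and 15.6% against 10.8% to 12.8%. The part of RNA quality or library composition in the members' day-7 ratios was not tested. The untreated day-3 dip did not follow length, with rho of 0.08 over the members and a median of -0.46 once the trend was removed.

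**Figure D4:**
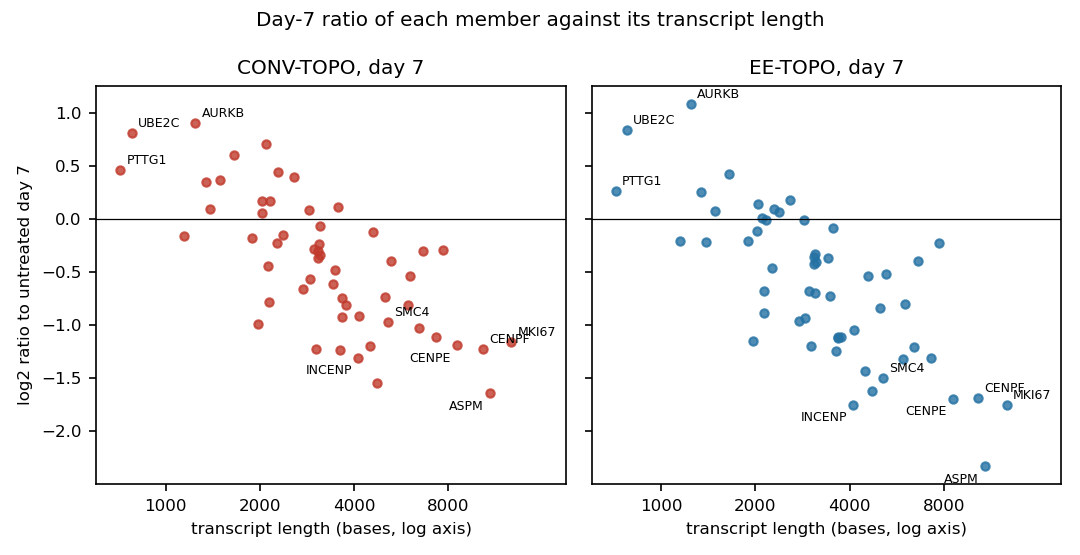
Log2 ratio to untreated day 7 (vertical axis) of each of the 55 members against its transcript length in bases (horizontal log axis), with CONV-TOPO on the left and EE-TOPO on the right. The points run from AURKB and UBE2C above 0 among short transcripts down to ASPM, MKI67, CENPF and CENPE among the longest, with Spearman's rho of -0.71 and -0.74.

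Days 3 and 7 were also fitted together, with limma on log2(scaled CPM + 1) over 6 libraries with terms for treatment and day, which left 2 residual degrees of freedom and treated the days as replicates of a regimen. No member passed a Benjamini-Hochberg adjusted p of 0.05 in any of the 3 contrasts, and neither did any of the 14731 genes tested (0% called). The lowest adjusted p of a member by limma was 0.914 for CONV-TOPO against untreated, 0.907 for EE-TOPO against untreated and above 0.999 for EE-TOPO against CONV-TOPO. At an unadjusted p under 0.05 the limma fit gave 1 member for CONV-TOPO, SMC4, and 3 for EE-TOPO, NUF2, SMC2 and SMC4, all lower, and 0 between the regimens, where 1.72%, 3.56% and 0.876% of all genes passed. Leaving out the untreated day-3 library, so that untreated day 7 stood alone for its group, gave 27 members for CONV-TOPO and 29 for EE-TOPO among 44% and 42.1% of all genes. Leaving out untreated day 7 gave 0 and 2, NUSAP1 and SMC4, among 0.862% and 3.89%. The number of calls against untreated thus turned on which untreated library was kept.

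Other gene lists, named for their function and also chosen with earlier results known, gave a measure of what the members shared with the rest of the cell cycle. Of 83 other mitosis genes 82 had a mean of at least 5 CPM, and their medians had the sign of the members' in 8 of the 9 comparisons, all nearer to 0, with -0.05 on untreated day 3 to day 0 and -0.30 with EE-TOPO on day 7. The exception was EE-TOPO on day 3, at -0.02. The 30 DNA replication genes, which act in S phase, differed. Untreated day 3 was above day 0 for 23 of 30 at a median of 0.15, where 5417 of the 11332 genes were above it. Day-3 ratios were below 0 for 29 of 30 with CONV-TOPO and 30 of 30 with EE-TOPO, where 6120 and 6396 of all genes were. The day-7 medians of the replication genes were -0.01 and -0.07. EE-TOPO and CONV-TOPO were also closer in the replication genes on day 3, at a median of -0.07 where the mitosis members had 0.36. The plot of list medians shows these 3 lists together. Among 15 subunits and partners of MuvB and NF-Y the median was 0.12 on untreated day 3 to day 0 and -0.17 and -0.27 with CONV-TOPO and EE-TOPO on day 7. The list of 9 genes that holds inhibitors of cyclin-dependent kinases and GADD45A had a median of 0.20 on untreated day 3 to day 0, with 5 above 0 and 4 below it, and of 0.38 and 0.81 with CONV-TOPO and EE-TOPO on day 7. It included CDKN1A, or p21, which was in untreated spheroids at 48.1, 117.1 and 59.1 CPM on days 0, 3 and 7, under CONV-TOPO at 98.96 and 92.8 CPM and under EE-TOPO at 102.5 and 137.4 CPM. CDKN1A was thus highest among the untreated libraries on day 3, where PLK1 and CCNB1 were lowest, and the part of it in their levels was not tested.

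**Figure D5:**
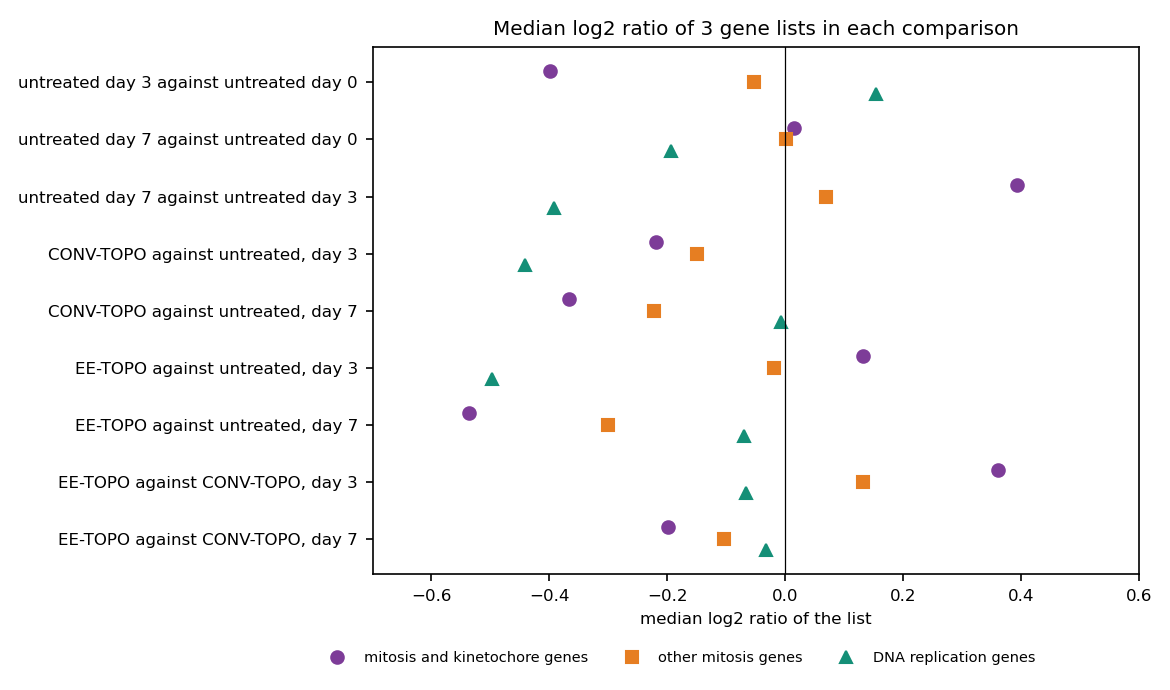
Median log2 ratio (horizontal axis) of the 55 mitosis and kinetochore genes, 82 other mitosis genes and 30 DNA replication genes in the 9 single-library comparisons (rows). The mitosis members lie at -0.40 and the replication genes at 0.15 for untreated day 3 against day 0, and at 0.36 and -0.07 for EE-TOPO against CONV-TOPO on day 3.

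Across the 7 libraries the gene most like the mean profile of the members was NCAPD2, a condensin I subunit, with Pearson's r of 1.00, followed by SMYD2 at 0.99, GPSM2 at 0.99, TUSC3 at 0.97 and HSD17B12 at 0.96. CRTAP, CCDC85C, FAF1, TOP2A and GAS2L3 completed the 10 most alike, at 0.94 to 0.95. Of these 10, NCAPD2 and TOP2A, which encodes the topoisomerase that untangles chromosomes in mitosis, are in the list of other mitosis genes. With 7 libraries these values only describe likeness.

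Several members share sequence with other listed genes, and the strand setting of the counting is not given in the sources used here, so reads of overlapping genes cannot be told apart. PRC1 shares 38.8% of its exon bases with PRC1-AS1, NCAPG 35.6% with LCORL, SMC4 32.3% with IFT80 and TRIM59, and FOXM1 22.0% with ITFG2. UBE2C has 5 annotated pseudogenes and NEK2 has 3, which could take reads from them. The PC-3 identity was checked with 7 epithelial and mesenchymal genes that the line expresses, summed at 4106 to 6411 CPM per library. Of 12 markers of blood, vessel, fibroblast and liver cells 9 were listed, summed at 147.7 to 218.1 CPM, of which CD68 held 65.7 to 127.9 CPM, COL1A1, a fibroblast collagen, 46.6 to 83.0 CPM and PECAM1, of vessels, 16.8 to 32.7 CPM. The other 6 listed were lower, ACTA2 at 0.952 to 3.33 CPM and COL1A2, PDGFRB, PTPRC, DCN and ALB at or below 0.601 CPM.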

How the data were processed

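RNA-seq reads were, per the study's methods, mapped to hg38 with STAR, counted per gene and normalised by the authors to CPM, so that the deposited CPM values sum to 1000000 in each of 7 libraries over 18144 genes once the 0.0001 added to every value is subtracted. The deposited table also gives each gene's start and stop. The counter, the annotation and whether counting used strand are not given in the sources used here, and libraries were made with the TruSeq RNA kit v2. Depth was estimated from the CPM worth of 1 read, and 89.2% to 90.9% of values under 1 CPM came out as whole reads within 0.03 of a read, so no count model was run. Intervals on ratios are exact binomial at 95% from the estimated reads and cover counting error only.

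CPM were scaled by TMM factors (0.883 to 1.09) written in Python 3.11.15 with numpy 2.4.6, and log2(scaled CPM + 1) was used throughout. Adding 1 CPM understates the ratios of low genes. Pairs of single libraries were compared with no test, among 11332 genes with a mean of at least 5 CPM, at 1.5-fold. Treatments over days 3 and 7 were tested with limma 3.58.1 in R 4.3.3 (treatment and day, 6 libraries) on the 14731 genes with the CPM of at least 10 reads at median depth in at least 2 libraries, with Benjamini-Hochberg adjustment, which assumes that the days vary like replicates. On simulated data with the 14731 genes, EE-TOPO was fitted against untreated with 200 genes changed 4-fold. At a spread of 0.2 (log2) 100% of the 200 were recovered with 7 false calls, and at 0.4 95% with 14. Recovery was not tested for ratios that differ between days, as the members' EE-TOPO median did (0.13 on day 3, -0.54 on day 7). Lengths came from canonical GENCODE 44 transcripts, and promoters from RefSeq tables. The trend with length, span and GC content was fitted over 11123 genes.

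The 55 members, the role classes and the other lists (other mitosis genes, DNA replication, MuvB and NF-Y subunits, kinase inhibitors, PC-3 genes and markers of other cells) were chosen with earlier results of these data known. Values in every library are given for 2 members of each class with the highest mean, for the 3 highest and 3 lowest ratios in each comparison and for a list of 19 well-known members. Alternatives tried were library totals, median-of-ratios factors, a pseudocount of 0.1, no filter, removal of the trend, untreated day 0 as the base, no day term, 4 libraries and leaving out each library. Untreated day 0 was in no fit, and the samples of day 1 were not analysed here.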

Additional observations from a re-analysis of the deposited data

Results flagged for a closer look

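Results that went one way on day 3 and the other way on day 7 are listed here, each from 1 library against 1, and the differences between days were not tested. The median log2 ratio of the 55 members to untreated was 0.13 with EE-TOPO on day 3 and -0.54 on day 7. Set against each other, the regimens gave a median for EE-TOPO over CONV-TOPO of 0.36 on the earlier day and of -0.20 on the later one. At 1.5-fold or more in both directions with EE-TOPO were BUB1, with 0.69 on day 3 and -1.11 on day 7, CENPE, with 0.69 and -1.69, CENPF, with 0.79 and -1.69, KIF14, with 0.64 and -1.31, and KIF20A, with 1.07 and -0.70. UBE2C was the only member past that limit in opposite directions with CONV-TOPO, at -0.62 on day 3 and 0.81 on day 7. The untreated day-3 library, which was low for BUB1, CENPF and KIF20A, is the base of the day-3 values. Against untreated day 0 the day-3 log2 ratio with EE-TOPO was -0.38 for BUB1, 0.41 for CENPE, -0.13 for CENPF, 0.15 for KIF14 and -0.30 for KIF20A, so on that base none of them was 1.5-fold higher, and UBE2C with CONV-TOPO on day 3 was at -0.50, also within 1.5-fold.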

How the results depend on the processing

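Each condition is 1 library, so a difference between libraries includes the differences between cultures, and depth of 15028038 reads or more limits the members little beside that. Removing the trend with transcript length, span and GC content moved the members' median log2 ratio to untreated to -0.12 (CONV-TOPO, day 3), -0.22 (CONV-TOPO, day 7) and -0.40 (EE-TOPO, day 7). Library totals moved the day-7 medians to -0.61 with CONV-TOPO and -0.74 with EE-TOPO, where the median of all genes moved as well. With untreated day 0 as the base the day-3 median was -0.59 for CONV-TOPO and, reversed in sign, -0.30 for EE-TOPO, by the construction of that base, since untreated day 3 lay below day 0. The remaining medians under library totals, median-of-ratios factors, a pseudocount of 0.1, no filter, the removed trend and the day-0 base moved by no more than 0.1 and kept their direction. Leaving out 1 library at a time, the members past limma's adjusted threshold ranged from 0 to 27 for CONV-TOPO against untreated and from 0 to 29 for EE-TOPO against untreated, both highest without untreated day 3, and the lone untreated library is then assumed to vary like the other groups. Without untreated day 7, 2 members were called for EE-TOPO. In EE-TOPO against CONV-TOPO the count was 0 in every fit run, and in the fits with other scaling, pseudocount, filter, day term or only 4 libraries it was 0 in all 3 contrasts. In the fits with all 6 libraries, members with an unadjusted limma p under 0.05 against untreated ranged from 0 to 4. The 0 was for CONV-TOPO without a day term, where 140 of 14731 genes passed. The 4 were for EE-TOPO with library totals, where 471 genes passed. Between the regimens those fits gave 0 members. With only the 4 libraries of the 2 regimens the count was 2, where 1477 of 14731 genes passed. Counts at 1.5-fold under other scalings and against day 0, given with the comparisons, were chosen after seeing the data, and beside those library totals gave 2 members higher in place of 0 on untreated day 7 against day 0 (6.52% of all genes). No paired analysis was possible because every group holds only replicate 1, so no replicate block could be fitted. Libraries of the same day were matched by the day term of the limma fit, which gave 0 called members with it and without it.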
